A study of Mus musculus with 10 samples.

Results

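The genes described here are the cytosolic ribosomal proteins, the protein subunits of the ribosome that works in the cytoplasm, as measured on mouse expression arrays. Members were chosen by symbol: a probe set (the group of short probes that reports a transcript) was taken if it was paired with a single symbol of the form Rps, Rpl, Rplp or Rpsa, with pseudogenes, ribosomal kinases and paralogues whose symbol carries an added letter l left out. The rule found 96 probe sets of 44 genes among 45101 probe sets on the array, of which 34945 had a single symbol. By symbol, 21 genes encode proteins of the small subunit and 22 of the large subunit. The remaining gene, Rps19bp1, enters by its letters alone, since its product binds Rps19 and is no ribosomal subunit. A further 110 probe sets pair a symbol of this form with other symbols and were not members, so several ribosomal protein genes, Rpl5, Rpl10 and Rplp1 among them, are not described. After a filter on low signal, 90 probe sets of 43 genes stayed. The only probe set of Rps16 was dropped, as were 5 others.

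In all, 10 arrays in 3 groups were compared, hybridised with RNA of cells sorted by DNA content after staining with 15 µg/ml of the dye Hoechst 33342. The first group, AG-haESC, holds 5 androgenetic haploid embryonic stem cell lines of C57BL/6J background, whose genome comes from sperm alone, sorted at the 1n peak at passages 12 to 15. Replicates 1, 2, 4 and 5 carry an Oct4-EGFP reporter and replicate 3 an Actin-EGFP reporter, and these lines grew on feeder cells in medium with the inhibitors CHIR99021 and PD0325901. The second group, E14, holds 3 samples of 1 male diploid wild-type embryonic stem cell line of 129/Sv background at passage 17, sorted at the 2n peak. The third group, MEF, holds 2 samples of embryonic fibroblasts at passage 2 from male B6D2F1 embryos of d13.5, also sorted at the 2n peak. Background strain, ploidy, parental origin, cell line, reporter and passage therefore change together between AG-haESC and E14 and cannot be told apart. The labels do not give the medium of E14 and MEF, so a difference in culture cannot be told apart either. The titles call the E14 and the MEF samples biological replicates without naming separate cultures or embryos. The p-values use a spread estimated over all 3 groups together, the AG-haESC lines included. They measure no spread beyond these samples.

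Ribosomal proteins are assembled with ribosomal RNA in the nucleolus into the small subunit, which decodes the messenger RNA, and the large subunit, which joins amino acids. Their messenger RNAs are among the most abundant of growing cells and are known for a 5′ terminal stretch of pyrimidines (the TOP motif), through which mTOR and Larp1 control their translation together. Pluripotent stem cells are known for fast division and a high output of ribosomes.

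Of the 44 genes, 39 matched the RefSeq start-site table (GRCm38.p6) by gene ID. The letters CTTTC or CTTTT, a short form of the start of a TOP stretch, lay on the transcribed strand within 15 bases of an annotated start in 12 of the 39 (30.8%), against 8.11% of all 27025 genes of the table. On either strand the shares were 35.9% and 15.0%. The letters CCGGAAG, the core that ETS factors such as Gabpa bind, lay on either strand within the 300 bases around a start in 19 of the 39 (48.7%), against 9.93% of all genes. The windows below are those of the members on which the comparisons turn: Rps6 and Rpl14, which passed the test between the stem cell groups, Rpl12 and Rps27, with the largest higher and lower difference between AG-haESC and fibroblasts, and Rps9, whose probe sets disagreed. Each holds 30 bases, 15 on either side of the RefSeq start, 5′ to 3′ on the gene's strand, with CTTTC or CTTTT in capitals. Rps6 lies at chr4:86857353-86857382 (minus strand), Rpl14 at chr9:120571502-120571531 (plus strand), Rpl12 at chr2:32961697-32961726 (plus strand), Rps27 at chr3:90213634-90213663 (minus strand) and Rps9 at chr7:3704026-3704055 (plus strand), each across the start of exon and 5′ untranslated region of its gene.
Rps6: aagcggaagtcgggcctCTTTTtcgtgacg
Rpl14: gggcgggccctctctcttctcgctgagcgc
Rpl12: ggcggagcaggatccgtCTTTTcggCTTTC
Rps27: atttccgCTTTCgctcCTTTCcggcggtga
Rps9: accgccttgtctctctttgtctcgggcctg
The windows of Rps6, Rpl12 and Rps27 hold the searched letters. Those of Rpl14 and Rps9 do not and carry pyrimidine runs of another spelling.

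All values below are log2 of the deposited signal, so a difference of 1 is 2-fold. A signal depends on its probes, so levels are compared between groups for the same probe set and not between genes. The member probe sets were bright: 65 of the 96 had a mean log2 signal of at least 13 over the 10 arrays, while the array medians were between 5.81 and 6.09. Together the members took 4.93, 5.19, 4.98, 5.66 and 4.94% of the summed signal on the 5 AG-haESC arrays, 5.68, 5.58 and 5.16% on the E14 arrays and 5.06 and 4.48% on the MEF arrays. The AG-haESC range overlapped both others, while all E14 shares were above both MEF shares, and the lowest share was that of MEF replicate 2. Pluripotency markers were higher than in fibroblasts in both stem cell groups (8 of 8 passed), and all 15 fibroblast markers tested were lower. Macrophage markers (7 of 8 and 6 of 8) and muscle markers (7 of 7 and 6 of 7) were lower in AG-haESC and E14 than in MEF. Over all genes 30.2% and 30.4% were higher and 29.6% and 26.9% lower. The filter on low signal partly fixed these marker counts. C1qa (means of 1.72, 2.36 and 8.37 in AG-haESC, E14 and MEF) was kept only through MEF, and Pou5f1 (13.55, 13.52 and 2.64) only through the stem cells. Between the stem cell groups Nanog was higher in AG-haESC (0.87, adjusted p = 0.00075) and Zfp42 lower (-1.56, adjusted p = 0.0219). Of the 15 fibroblast markers, 6 were higher in AG-haESC than in E14, among them Col1a1 (log2 8.0 ± 0.952, SD, n = 5, against 4.86 ± 1.73, n = 3) and Postn (3.02 higher), and their part in the results below was not tested. The summed linear signal of the 15 genes lay between 10137 and 15573 on AG-haESC arrays, 8549 and 10084 on E14 arrays and 163925 and 193010 on MEF arrays, and 0 of them were listed at 0.

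The 34 member genes with a mean log2 signal of at least 13 moved from array to array almost as a block. Their median was 14.85, 14.95, 14.89, 15.16 and 14.85 in the AG-haESC lines, 15.10, 15.05 and 14.93 in E14, and 14.90 and 14.63 in MEF. AG-haESC replicate 4 stood above the other lines, and the AG-haESC range spans those of E14 and of MEF replicate 1. AG-haESC replicate 4 was the highest line for 33 of the 34 genes, MEF replicate 2 was below MEF replicate 1 for 32, and E14 replicate 3 was the lowest E14 sample for 27. The median SD of these genes among AG-haESC lines was 0.145, and it was 0.0628 once each array was centred on its own median over them (0.107 and 0.074 in E14, 0.178 and 0.0535 in MEF). The upper end of each array as a whole moved in a like order at both extremes: the 99th percentile of log2 signal was 13.86, 13.91, 13.90, 14 and 13.83 in AG-haESC, 13.90, 13.88 and 13.87 in E14, and 13.68 and 13.63 in MEF. Its part in the differences of bright members was not tested, and the other scalings given below are no test of it.

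**Figure D1:**
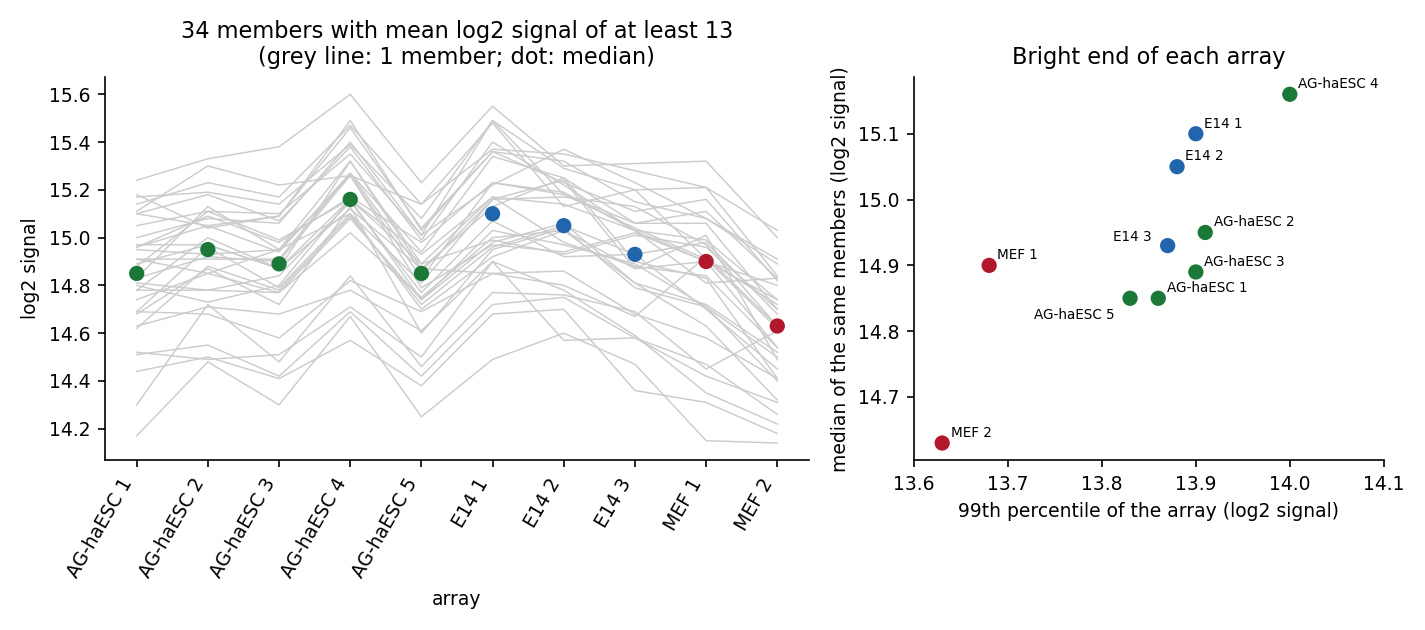
Left, log2 signal (y axis) of the 34 members with a mean of at least 13 in each of the 10 arrays (x axis), 1 grey line per member, with the median as a coloured dot (green AG-haESC, blue E14, red MEF). Right, the same medians (y axis) against the 99th percentile of log2 signal of each array (x axis): AG-haESC replicate 4 is highest on both axes at 15.16 and 14, and MEF replicate 2 lowest on both at 14.63 and 13.63.

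Between haploid AG-haESC and diploid E14 cells, 2 of the 43 members tested passed the test (limma, Benjamini-Hochberg adjusted p below 0.05 over 13251 genes), 1 in each direction. Over all genes 15.9% passed (8.08% higher and 7.77% lower), so the members' share was below the background. Their median difference was -0.12, beside -0.08 over all genes, and by their means 5 of 43 were higher in AG-haESC, against 42.6% of all genes. The groups did not overlap for 3 members, against 22.6% of all genes. Of the 34 bright members 0 passed in limma, and their differences lay between -0.21 and 0.23. At an unadjusted p below 0.05 limma gave 0 of them higher and 1 lower. Of all 13251 genes 1781 were higher and 2275 lower at that threshold.

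Rps6, the small-subunit protein phosphorylated by S6 kinases, was higher in AG-haESC. Its log2 signal was 10.99, 11.10, 10.96, 10.43 and 10.81 in the AG-haESC lines, 10, 9.75 and 10.07 in E14, and 10.33 and 10.24 in MEF. Every haploid line stood above every E14 and MEF sample, with replicate 4 the lowest line. The difference from E14 was 0.92 (SE 0.161, adjusted p = 0.00314, 1.89-fold), that from MEF was 0.58 (SE 0.184, adjusted p = 0.0177), and E14 minus MEF was -0.34 (adjusted p = 0.163). The call against MEF was lost when either MEF array was left out, with differences of 0.62 without replicate 1 (adjusted p = 0.0745) and 0.53 without replicate 2 (adjusted p = 0.12).

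Rpl14, a large-subunit protein, went the other way. It read 10.12, 10.41, 10.38, 9.61 and 10.06 in AG-haESC, 10.83, 10.96 and 11.19 in E14, and 11.38 and 11.40 in MEF. All 5 haploid lines were below all other samples, again with replicate 4 the lowest. It was lower than in E14 by 0.88 (SE 0.180, adjusted p = 0.00754) and lower than in MEF by 1.27 (SE 0.206, adjusted p = 0.00025). Rps6 and Rpl14 each rest on 1 kept probe set of medium signal.

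**Figure D2:**
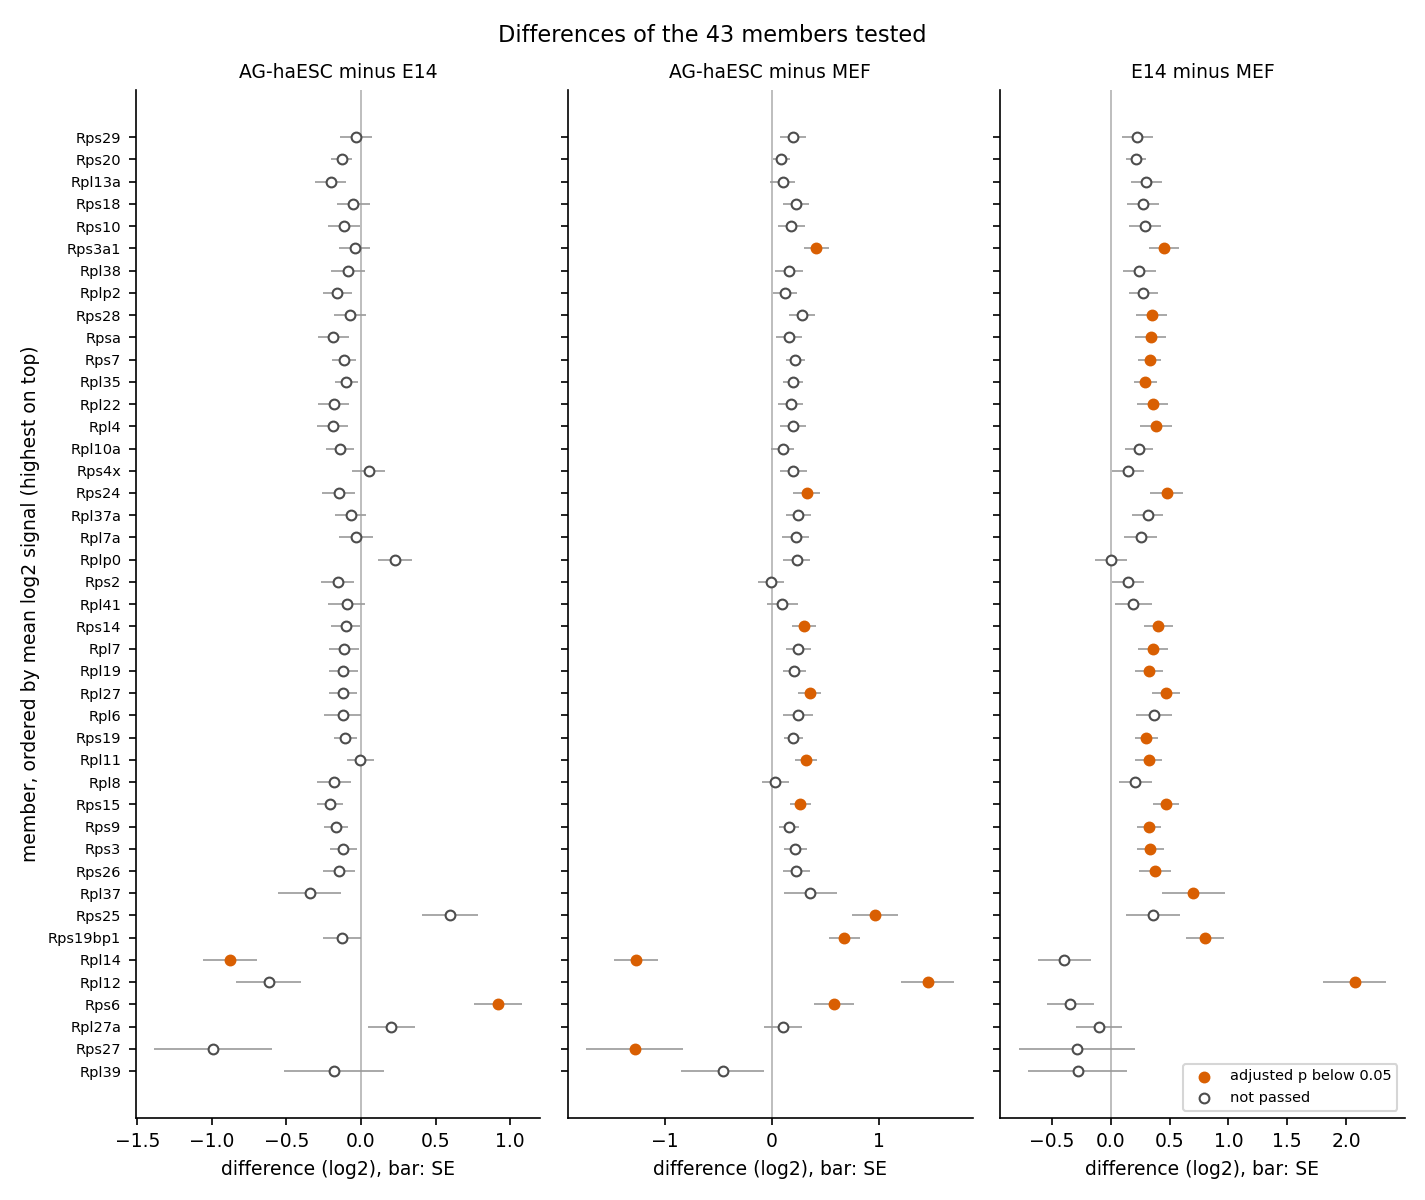
Difference in log2 signal (x axis, bar: SE) of each of the 43 members tested (y axis, ordered by mean log2 signal, highest on top) in the 3 comparisons, with orange dots for an adjusted p below 0.05. Between the stem cell groups 2 dots are orange, against 12 for AG-haESC minus MEF and 21 for E14 minus MEF, and the bright members of the upper rows lie close to 0 in the first panel and mostly to its right in the other two.

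Between AG-haESC and fibroblasts, 10 members were higher and 2 lower in the haploid lines, which is 27.9% of the 43 against 59.8% of all genes. Over all genes 30.2% were higher and 29.6% lower. The members' median difference was 0.21, beside 0.01 over all genes, and for 20 members the groups did not overlap (70.3% of all genes). The small subunit gave 6 higher and 1 lower of 20, the large subunit 3 higher and 1 lower of 22, and Rps19bp1 was also higher. Past 2-fold stood 1 higher member, Rpl12, and 2 lower ones, Rpl14 and Rps27 (19.7% and 22.5% of all genes).

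Rpl12, a protein at the base of the large-subunit stalk, gave the largest difference from fibroblasts among the 43 genes in both stem cell groups. That ranking takes the brightest probe set per gene, and the only one of Rpl12 had a mean log2 signal of 10.555. For E14 minus MEF, probe sets with a mean below 13 gave up to 2.22 in Rps18, 2.06 in Rpl41 and 2.00 in Rps10. Brighter sets stood for those genes. Rpl12 read 10.53, 10.45, 10.32, 11.33 and 10.66 in AG-haESC, 11.11, 11.15 and 11.58 in E14, and 9.13 and 9.28 in MEF. Both MEF samples lay below all 8 stem cell samples, while AG-haESC replicate 4 alone reached into the E14 range. The difference from MEF was 1.45 in AG-haESC (SE 0.247, adjusted p = 0.00036) and 2.07 in E14 (SE 0.269, adjusted p = 5.53e-05, 4.21-fold), and AG-haESC minus E14 was -0.62 (adjusted p = 0.0741). Both comparisons share the same MEF arrays.

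Rps25, a small-subunit protein used by some viral internal ribosome entry sites, was higher in AG-haESC than in MEF by 0.96 (SE 0.214, adjusted p = 0.00231). Its only probe set had a mean log2 signal of 11.364. The values of Rps25 were 11.62, 11.71, 11.44, 12.14 and 11.77 in AG-haESC, 10.97, 10.90 and 11.54 in E14, and 10.59 and 10.96 in MEF. The E14 samples fell on both sides of the gap between the other groups, and the difference from E14, 0.60, had an adjusted p of 0.0503. That p was below 0.05 with centred arrays, quantile normalization, a pseudocount of 32, the mean of probe sets, array weights or no _x_at probe sets, and without AG-haESC replicate 3 or E14 replicate 3.

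Rps27 was lower in AG-haESC than in MEF by 1.28 (SE 0.451, adjusted p = 0.0281). Its only probe set had a mean log2 signal of 8.81. Rps27 read 8.07, 8.23, 7.70, 9.0 and 8.28 in AG-haESC, 8.71, 10.42 and 8.62 in E14, and 9.52 and 9.56 in MEF. The second E14 sample stood far above the other two, and leaving out AG-haESC replicate 1, AG-haESC replicate 3, MEF replicate 1 or MEF replicate 2 ended the call, at differences of -1.24, -1.15, -1.30 and -1.27.

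Bright members of the small subunit passed against MEF with smaller differences, and of these 4 Rps3a1 led at 0.41 (SE 0.118, adjusted p = 0.0099). Its values were 15.14, 15.23, 15.17, 15.47 and 15.14 in AG-haESC, 15.48, 15.13 and 15.20 in E14, and 14.91 and 14.72 in MEF, so that no MEF sample reached a stem cell sample. Rps24 (0.32), Rps14 (0.30) and Rps15 (0.26) were the others. In the large subunit Rpl27 (0.35, adjusted p = 0.0154) and Rpl11 (0.32, adjusted p = 0.0204), the latter a subunit that binds Mdm2 and links ribosome assembly to p53, passed. All 6 calls of bright members, those of Rps14, Rps15 and Rps24 included, depended on MEF replicate 2. Without it, which leaves 1 MEF array, the differences were 0.31 for Rps3a1, 0.20 for Rpl27 and 0.22 for Rpl11. Rps19bp1, the gene that is no subunit, was higher in AG-haESC by 0.67 (SE 0.145) and in E14 by 0.80 (SE 0.158), and passed in all alternatives tried.

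Between E14 and fibroblasts, 21 of 43 members were higher and 0 lower (48.8% against 57.3% of all genes passed, 30.4% higher and 26.9% lower). At an unadjusted p below 0.05 limma gave 26 higher and 0 lower, beside 4370 higher and 3877 lower of all 13251 genes. The median difference was 0.32, beside 0.08 over all genes, and the groups did not overlap for 30 members (73.9% of all genes). The differences were mostly small: among the 34 bright members 18 passed, all higher, with differences over the 34 from 0.00 to 0.47, and Rpl12 was the only member past 2-fold (20.9% of all genes were past it as higher and 21.3% as lower). After Rpl12 and Rps19bp1 the largest were Rpl37 (0.70, SE 0.266, adjusted p = 0.0407), Rps24 (0.47), Rpl27 (0.47, adjusted p = 0.00521) and Rps15 (0.47, adjusted p = 0.00316). Rps24 lost its call without E14 replicate 1 (0.23), E14 replicate 2 (0.19) or MEF replicate 2 (0.26), and with quantile normalization (0.20). Rpl37 lost it in 7 alternatives, among them those without AG-haESC replicate 2, E14 replicate 2 and either MEF array, and Rpl27 lost it without MEF replicate 2 (0.32).

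Rps15 shows how narrow these gaps were. It read 14.90, 14.78 and 14.59 in E14 and 14.35 and 14.22 in MEF, beside 14.52, 14.49, 14.51, 14.71 and 14.50 in AG-haESC. The E14 values lay above both MEF values, and the AG-haESC lines lay between the MEF values and the higher E14 values, with replicate 4 the highest line. Its other bright probe set, 1416089_at, read 13.81, 14.14 and 14.37 in E14 and 14.11 and 13.81 in MEF, so those groups overlapped. With the mean of its probe sets Rps15 lost the call in limma (0.31, adjusted p = 0.0869).

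The counts of members passed against MEF, bright or not, depended on the scaling of the arrays and on MEF replicate 2. Quantile normalization gives every array the same distribution. With it 4 members were higher and 1 lower in E14 than in MEF, and the median difference was 0.03. Over all genes 32.2% were higher. The medians of the bright members lie above the 99th percentile on every array. Equal distributions therefore take out much of a shift that these members share, whatever its source. With arrays centred on their medians 5 members were higher in E14 than in MEF, beside 27.1% of all genes. Rpl12, Rpl27, Rps15 and Rps19bp1 passed under both the deposited scaling and quantile normalization. Without MEF replicate 2, 3 members were higher in E14 than in MEF and 3 were higher in AG-haESC than in MEF, and without E14 replicate 1 or 2 the E14 count was 8. For AG-haESC minus MEF, quantile normalization left 6 higher and 3 lower, beside 32.3% and 27.6% of all genes. Here Rpl12, Rpl14, Rpl27, Rps19bp1, Rps25, Rps27, Rps3a1 and Rps6 passed under both scalings. Rps6 and Rpl14 passed between AG-haESC and E14 under both.

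Among the members looked at for their known roles, the stalk proteins Rplp0 and Rplp2, which recruit elongation factors, did not pass in any comparison. Rplp0 read 14.97, 14.97, 14.87, 15.32 and 14.87 in AG-haESC, 14.85, 14.80 and 14.67 in E14, and 14.92 and 14.63 in MEF. It was 1 of 3 members with no overlap between AG-haESC and E14 (difference 0.23, SE 0.111, adjusted p = 0.19), while E14 minus MEF was 0.00. With quantile normalization these became 0.32 (adjusted p = 0.00258) and -0.27 (adjusted p = 0.00444), both past the threshold. Rplp2 differed by -0.16, 0.12 and 0.28 in AG-haESC minus E14, AG-haESC minus MEF and E14 minus MEF, with adjusted p-values of 0.293, 0.38 and 0.0688.

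Rpsa, the small-subunit protein that doubles as a laminin receptor, and Rps19, the subunit most often mutated in Diamond-Blackfan anaemia, passed only for E14 minus MEF. The differences there were 0.34 (adjusted p = 0.0463) for Rpsa and 0.30 (adjusted p = 0.021) for Rps19. Rpsa lost its call in 13 of its alternatives and Rps19 in 6. Rpl38, known for its part in the translation of Hox messenger RNAs, differed by -0.09, 0.16 and 0.24 in the same order of comparisons and passed in none (adjusted p = 0.648, 0.319 and 0.161).

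The X-linked members were Rps4x and Rpl39, of interest because an X-bearing haploid cell, a male diploid line and male fibroblasts each carry a single X per cell but differ in autosome number. Rps4x read 14.83, 15.13, 14.95, 15.32 and 14.89 in AG-haESC, 14.99, 14.93 and 15.01 in E14, and 14.96 and 14.70 in MEF, and the 3 groups overlapped. Its differences of 0.05 (SE 0.11), 0.20 (SE 0.126) and 0.15 (SE 0.138) had adjusted p-values of 0.796, 0.197 and 0.38. Rpl39 was the member with the largest SD among the AG-haESC lines, 0.598, with values of 7.78, 8.46, 8.54, 7.45 and 7.20, against 8.02, 7.60 and 8.58 in E14 and 8.47 and 8.22 in MEF. Its only probe set had a mean log2 signal of 8.032. The next largest SDs, of Rps27 (0.474) and Rpl12 (0.396), also came from probe sets with a mean below 13. Rpl39 passed in no comparison (adjusted p = 0.76, 0.324 and 0.592). The arrays are scaled to a common trimmed mean, so they give a gene's level relative to the rest of the RNA and no level per cell.

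Rps9, a small-subunit protein near the messenger RNA entry, has 3 kept probe sets, and it was the only member with probe sets that passed in opposite directions within a comparison. Probe set 1434624_x_at read 14.11, 14.21, 14.18, 13.96 and 14.17 in AG-haESC, 9.51, 9.72 and 9.76 in E14, and 13.74 and 13.90 in MEF. The 3 E14 samples stood apart from the other 7 arrays, which lay between 13.74 and 14.21. AG-haESC minus E14 was 4.46 (SE 0.0993), E14 minus MEF was -4.16 (SE 0.124) and AG-haESC minus MEF was 0.30 (adjusted p = 0.0408), the last of which passed in 5 of 13 alternatives.

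Probe set 1433689_s_at of the same gene, the brightest and so the one that stands for Rps9 above, was nearly level. It read 14.51, 14.55, 14.42, 14.69 and 14.42 in AG-haESC, 14.72, 14.75 and 14.58 in E14, and 14.42 and 14.31 in MEF. E14 was higher than MEF by 0.32 (SE 0.104, adjusted p = 0.0217 over probe sets), and AG-haESC minus E14 was -0.17 (adjusted p = 0.22).

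The dim probe set 1426958_at ran opposite to the first. It read 8.37, 8.50, 8.10, 8.10 and 8.61 in AG-haESC, 9.33, 9.38 and 9.78 in E14, and 7.84 and 7.86 in MEF, so that all E14 samples stood above all others. AG-haESC minus E14 was -1.16 (SE 0.187, adjusted p = 0.00231) and E14 minus MEF was 1.65 (SE 0.234).

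The large E14 gap of probe set 1434624_x_at held in all 13 alternatives run for it, from 4.39 to 4.54 for AG-haESC minus E14 and from -4.33 to -4.08 for E14 minus MEF. Of 23911 kept probe sets with 1 symbol, 18 were lower in E14 than in both other groups by at least 4. In 6 of these AG-haESC and MEF also lay within 0.5 of each other, namely probe sets of Exoc4, Ifi27, Plagl1, Ptprg, Rps9 and Rtp4. That of Rps9 was the only one of the 6 among the 1566 probe sets with a mean log2 signal of at least 12. These limits were chosen after the Rps9 values were seen. With the mean over its probe sets in place of the brightest, Rps9 would read as higher in AG-haESC than in E14 by 1.05 and as lower in E14 than in MEF by 0.73. E14 is the only group of 129/Sv background, and strain and line cannot be told apart here. The probe sequences were not used here.

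**Figure D3:**
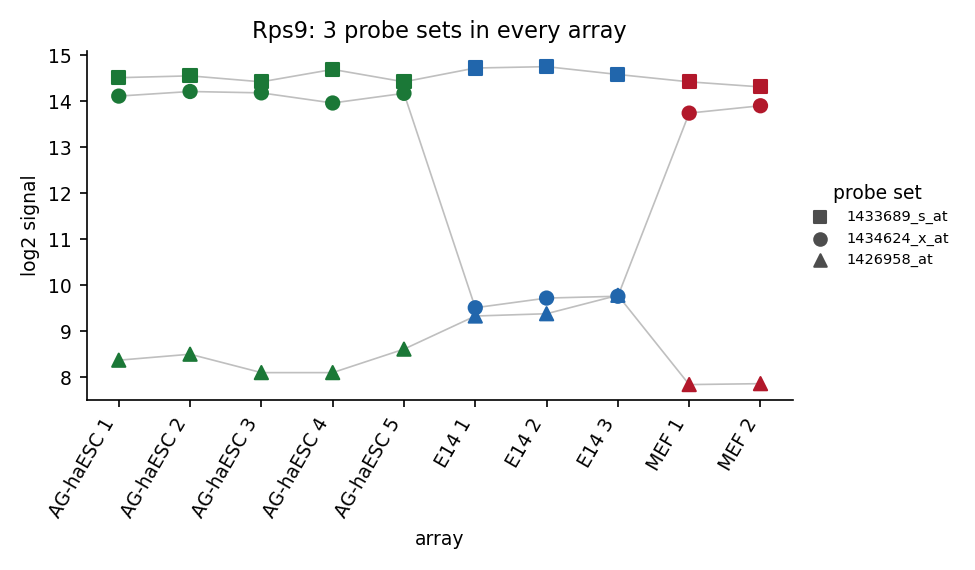
Log2 signal (y axis) of the 3 kept Rps9 probe sets in each of the 10 arrays (x axis; green AG-haESC, blue E14, red MEF; the marker gives the probe set). The circles drop from about the level of the squares to between 9.51 and 9.76 in the 3 E14 samples, where the triangles rise to between 9.33 and 9.78.

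Other members also gave different answers by probe set. Of 22 genes with several probe sets, 10 had both bright ones (mean at least 13) and dim ones. In both comparisons with MEF a dim probe set gave the highest difference in 9 of the 10 genes. In AG-haESC minus E14 a dim set gave the lowest difference in 8 of the 10 and the highest in 2, Rpl37a and Rps9. Rps9 counts there through its _x_at set, whose mean of 12.73 falls under 13 only through its E14 values. For E14 minus MEF, the dim probe sets of Rpl41 gave 1.71 and 2.06, against 0.13 and 0.19 for the bright ones. Those of Rps18 gave 1.19 to 2.22 against 0.27 to 0.36, that of Rps10 gave 2.00 against 0.26 to 0.40, and that of Rps3 gave 1.69 against 0.34. For AG-haESC minus E14 the dim sets of the same genes gave -0.71 and -0.64 (Rpl41), -1.18 to -0.61 (Rps18), -0.89 (Rps10) and -0.27 (Rps3), and of these sets 1 of Rps18 passed.

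The dim probe set of Rps3, 1455600_at, is an example, with means of 11.97 ± 0.423 (SD, n = 3) in E14 and 10.27 ± 0.082 (n = 2) in MEF, while the bright one stood at 14.58 ± 0.192 and 14.24 ± 0.092. Rps20 was the exception among the 10 genes, with -0.18 and 0.00 in dim sets and 0.22 and 0.25 in bright ones. Ribosomal protein genes are known for many near-identical processed copies, so a probe set may also read such copies, and 38 of the 96 probe sets carry the suffix _x_at, which marks probes that can bind other transcripts.

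Counted by probe set, 7 of the 90 passed between AG-haESC and E14 (2 higher and 5 lower, against 12.4% of all 27505 kept probe sets). Beside those of Rps6, Rpl14 and Rps9, these were 1 dim set of Rps18 and 2 of the 4 sets of Rpl13a, a large-subunit protein of the interferon-regulated GAIT complex, at -0.66 and -0.40. Against MEF, 27 passed for AG-haESC (23 higher, 4 lower, background 52.9%) and 45 for E14 (44 higher and 1 lower, that of Rps9, background 50.7%).

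**Figure D4:**
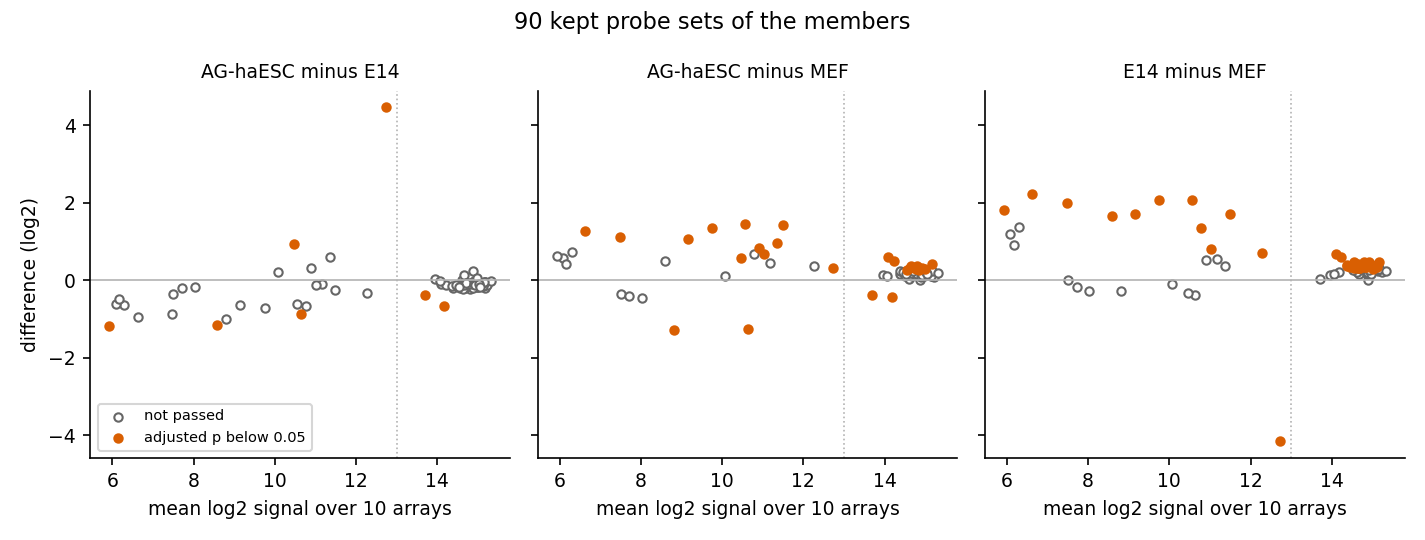
Difference in log2 signal (y axis) of the 90 kept member probe sets against their mean log2 signal over 10 arrays (x axis) in the 3 comparisons, orange for an adjusted p below 0.05, with a dotted line at 13. In the comparisons with MEF the bright sets on the right lie between -0.44 and 0.68, while the dim sets on the left reach 2.22, and the Rps9 set stands alone at 4.46 in the first panel and -4.16 in the last.

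Paralogues of ribosomal proteins, left out of the members by their symbols, held larger differences. Rpl39l, Rps4l, Rps27l and Rpl7l1 passed as higher in AG-haESC than in MEF, and the first 3 of them also in E14. Rpl3l was kept by the filter only through 2 E14 arrays and is given by its values alone. Rpl39l, the autosomal paralogue of X-linked Rpl39 known from testis, read 13.06, 12.71, 12.78, 12.88 and 12.39 in AG-haESC, 12.84, 12.85 and 11.93 in E14, and 9.04 and 8.67 in MEF. Both stem cell groups stood far above MEF and overlapped each other. The differences from MEF were 3.91 (SE 0.248, adjusted p = 1.96e-07) and 3.69 (SE 0.271, adjusted p = 7.55e-07).

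Rps4l, an autosomal paralogue of Rps4x, read 13.95, 13.91, 13.94, 14.26 and 13.86 in AG-haESC, 13.88, 13.94 and 13.89 in E14, and 11.38 and 11.44 in MEF. It was higher than in MEF by 2.58 (SE 0.111) and 2.50 (SE 0.121), and Rpl39l and Rps4l passed against MEF in all alternatives run. Rpl39 and Rps4x themselves passed in no comparison, though differences between a member and its paralogue were not tested.

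Rpl22l1, the paralogue of Rpl22, was the only one to pass between the stem cell groups, at 13.71 ± 0.148 (SD, n = 5) in AG-haESC against 14.24 ± 0.294 (n = 3) in E14 (-0.52, adjusted p = 0.0223), and did so in 16 of 19 alternatives. Rps27l and Rpl7l1 were higher in AG-haESC than in MEF by 0.43 and 0.56. Rpl3l, the form of striated muscle, was below the array median on all AG-haESC and MEF arrays, with values from 0.95 to 5.70, and at 7.18, 7.56 and 2.98 in E14, so no fold is given. Fau, whose product holds a ribosomal protein joined to a ubiquitin-like one and whose symbol lies outside the rule, passed in no comparison.

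In AG-haESC and E14, genes of ribosome biogenesis, mitochondrial ribosomal proteins and initiation factors each had a larger median difference from fibroblasts than the cytosolic ribosomal proteins. Those medians use the brightest probe set per gene, and the order depended on it. The 25 kept member probe sets with a mean below 13 had medians of 0.58 and 0.80, and the 65 bright ones 0.19 and 0.32. Initiation factors had 0.48 and 0.56, and mitochondrial ribosomal proteins 0.64 and 0.66. Of 52 genes of ribosome biogenesis, 44 were higher in AG-haESC and 45 in E14 than in MEF, with 0 lower in both (at an unadjusted p below 0.05 limma gave 44 and 47 higher and again 0 lower), and median differences of 1.04 and 1.14. The higher shares were 84.6% and 86.5%, against 30.2% and 30.4% of all genes. At the unadjusted threshold 4250 and 4370 of all 13251 genes were higher. Dkc1, the pseudouridine synthase of H/ACA particles, was higher by 2.31 (SE 0.0999) and 2.30 (SE 0.109), and its partner Nhp2 by 2.33 (SE 0.166) and 2.21 (SE 0.181). Quantile normalization gave 45 higher and 1 lower for AG-haESC and 45 higher and 0 lower for E14, so here the counts moved little. Between AG-haESC and E14 the list gave 1 higher, Gnl3l (0.48), and 1 lower, Nat10, the RNA cytidine acetyltransferase (-0.64). That was 3.85% of the list, against 15.9% of all genes.

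Mitochondrial ribosomal proteins, subunits of the separate ribosome inside mitochondria, were higher than in MEF for 52 of 76 in AG-haESC and 53 of 76 in E14, with 1 and 2 lower and medians of 0.64 and 0.66. The higher shares were 68.4% and 69.7%, against 30.2% and 30.4% of all genes. Between the stem cell groups 4 were higher and 7 lower in AG-haESC. These were 14.5% of the list, close to the 15.9% passed over all genes. Mrps24 (0.81, adjusted p = 0.0013) and Mrpl33 (0.69, adjusted p = 0.0204) led the higher ones, and Mrps10 (-0.69, adjusted p = 0.00289) and Mrpl2 (-0.67, adjusted p = 0.0261) the lower ones. Mrps31 was higher than in MEF by 1.74 and 1.76, Mrpl40 by 1.58 in AG-haESC and Mrps5 by 1.74 in E14. Mrps6 was lower than in MEF by 1.31 and 1.71, and Mrpl33 by 0.82 in E14.

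Of 32 initiation factors, 17 passed as higher than in MEF and 3 as lower for AG-haESC, and for E14 these counts were 20 and 1. The higher shares were 53.1% and 62.5%, against 30.2% and 30.4% of all genes. The eIF2B subunits Eif2b3 (1.34 and 1.59) and Eif2b5 (1.32 and 1.20) led the higher ones, and Eif4g3 was lower (-2.12 and -1.33), as was Eif3h in AG-haESC (-0.31). Between the stem cell groups 12.5% of these factors passed, against 15.9% of all genes. Eif2s2 was higher in AG-haESC (0.44) and Eif4g3 (-0.79) and Eif4b (-0.46) were lower. Of 15 elongation factors and other TOP genes, 6 exceeded MEF and 2 fell below it in AG-haESC, while in E14 the counts were 7 and 1. Passed genes made up 53.3% of this list in each comparison, against 59.8% and 57.3% of all genes. Among all genes 30.2% and 30.4% were higher than in MEF and 29.6% and 26.9% lower. Eef1d, an exchange factor for the elongation factor eEF1A, was higher by 0.87 and 0.90, Hnrnpa1, an RNA-binding protein, by 0.83 and 0.82, and Vim, a cytoskeletal gene of fibroblasts that is also a TOP gene, was lower by 1.65 and 1.64. Between AG-haESC and E14 the list gave 0 higher and 2 lower in limma, Eif4b and Eif3h (-0.37). At an unadjusted p below 0.05 it gave 0 higher and 5 lower, beside 1781 and 2275 of all 13251 genes. The share passed was 13.3%, against 15.9% of all genes. Quantile normalization changed the counts of this list to 3 higher and 4 lower, and 3 higher and 1 lower.

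Among genes known to regulate ribosomal protein output, the 2 Myc genes stood in opposite order. Mycn was 11.81 ± 0.395 (SD, n = 5) in AG-haESC, 11.51 ± 1.26 (n = 3) in E14 and 7.75 ± 0.251 (n = 2) in MEF. Myc was 5.81 ± 1.38, 7.73 ± 2.28 and 11.01 ± 0.0956 in the same groups, with E14 replicate 3, at 10.36, close to MEF. Both differences from MEF passed for both genes. Of the 12 regulators tested, 2 were higher and 2 lower in AG-haESC than in E14 (33.3%, against 15.9% of all genes). The higher ones were Rps6ka3, a kinase that phosphorylates Rps6 (0.93, adjusted p = 0.0159), and Eif4ebp1, the translation repressor that mTOR phosphorylates (0.38, adjusted p = 0.00764). Tsc2 (-0.68, adjusted p = 0.0239) and Rptor (-0.55, adjusted p = 0.0492), parts of the mTOR pathway, were lower. Against MEF, Rps6ka3 was lower in both stem cell groups (-1.31 and -2.24), Eif4ebp1 was higher in AG-haESC (0.60) and Mtor in E14 (0.51, adjusted p = 0.0453).

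**Figure D5:**
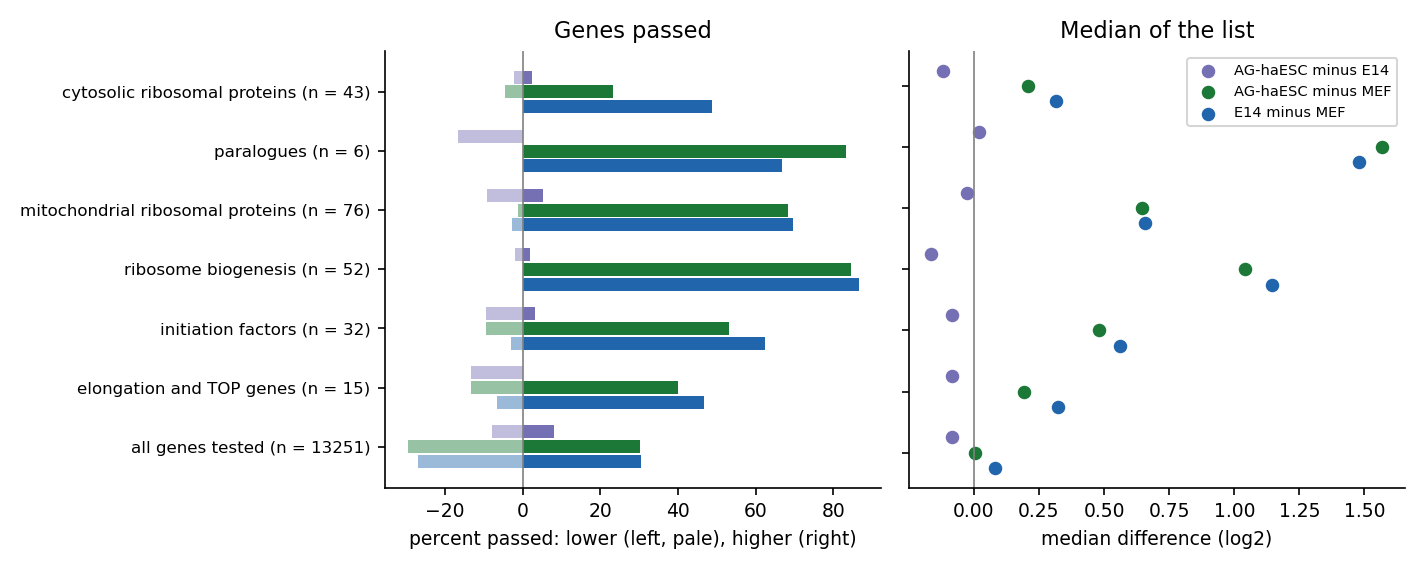
Left, percent of the genes of each list (y axis) that passed as higher (right of 0) or lower (left of 0, pale) in the 3 comparisons, by colour; right, the median difference of each list in log2 (x axis). Against MEF the cytosolic ribosomal proteins have medians of 0.21 and 0.32, the mitochondrial ones 0.64 and 0.66, and ribosome biogenesis genes 1.04 and 1.14, the bars of the paralogues include Rpl3l, and between the stem cell groups the medians drawn lie from -0.16 to 0.02.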

How the data were processed

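Members and gene lists were chosen with earlier results of these data known, so none of their counts is independent support. The deposited intensity values are linear MAS5 signals of Affymetrix 430 2.0 arrays (3′ IVT Express kit), 1 series table, scaled by the authors, per the labels and the submitters' processing notes. The trimmed mean (lowest and highest 2% left out) is 500 on each array, as tested on the table, so signals are relative to the rest of the array's RNA. The table gives no detection calls and its saturation is unknown.

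Here 64 control probe sets were left out and log2 taken. Probe sets above their array's median on at least 2 arrays were kept (27505 of 45101), and the brightest kept probe set with 1 symbol stood for a gene (13251 genes). All 10 arrays were fitted with limma 3.58.1 in R 4.3.3 (lmFit, eBayes with an intensity trend), as 3 group means, with Benjamini-Hochberg adjustment, and the script was tested on simulated data. The number of arrays limits the precision. Named genes followed a written rule: X-linked members, up to 6 passed in each direction, members of known role, those with opposed probe sets, the 3 most variable, those another setting reverses, measured paralogues, and of each other list the 2 largest passed each way. The marker lists, which the rule also takes, are given mainly by counts to keep to the members. Alternatives covered the probe set per gene, filter, pseudocount, scaling, trend, array weights, samples fitted, each array left out and a replicate block.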

Additional observations from a re-analysis of the deposited data

Results flagged for a closer look

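In 12 of the 43 members tested, AG-haESC replicate 4 stood apart from the other 4 lines by Dixon's criterion for a sample far from its group, which chance meets in about 1 of 20 groups, and in each of the 12 it was the highest line. Its log2 signal was 15.35 for Rpl13a, 15.08 for Rpl19, 15.27 for Rpl22, 15.46 for Rpl38, 15.26 for Rpl4, 15.16 for Rpl7 and 15.26 for Rpl7a. It was 15.32 for Rplp0 and 15.4 for Rplp2, and in the small subunit 15.15 for Rps14, 14.71 for Rps15 and 15.47 for Rps3a1. These genes share the array, so the 12 results are not independent. The same array had the highest 99th percentile of all 10, at 14, and its part in the result was not tested.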

How the results depend on the processing

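The count of members higher in AG-haESC than in E14 (1 in the fit described) was 3 with the mean of the kept probe sets and with quantile normalization, and 2 without _x_at probe sets, with a pseudocount of 32, with centred arrays and with array weights. The count lower was 3 with the mean of probe sets and 11 with array weights. Against MEF, the count higher in AG-haESC (10) was 6 with quantile normalization and 5 with no intensity trend. Over all genes 32.3% and 29.4% were higher in these. The count higher in E14 (21) was 13 with no filter, 5 with centred arrays, 4 with quantile normalization and 6 with no trend. The shares of all genes higher in these were 22.2%, 27.1%, 32.2% and 29.4%. The count lower (0) was 1 with the mean of probe sets, 1 with quantile normalization and 2 with array weights. The median of E14 minus MEF was 0.03 with quantile normalization. For these shifts the cause was not tested. Rplp0 turned to -0.273 in E14 minus MEF with quantile normalization, and with the mean of probe sets Rps9 turned to 1.045 in AG-haESC minus E14 and -0.729 in E14 minus MEF, through its probe set 1434624_x_at.

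With 1 array left out at a time, members higher in AG-haESC than in E14 ranged from 1 to 2, lower from 1 to 4 (4 without AG-haESC replicate 4 and 3 without E14 replicate 3), higher than in MEF from 3 to 13 and lower from 1 to 2. Members higher in E14 than in MEF ranged from 3 to 27. Replicate numbers 1 and 2 occur in both E14 and MEF, and the deviations of same-numbered samples had a correlation of -0.026. With 2 arrays per group both pairs give the same value by construction. It is therefore 1 check and cannot show whether same-numbered samples share more than a number. The fit with a replicate block on these numbers gave 30 members higher and 2 lower in E14 than in MEF, with a median of 0.364. Over all genes 35.2% were higher in that fit. Over the named members' alternatives 774 kept the direction and the side of the threshold, 57 lost the call, 14 gained it and 3 were reversed. Rpl12, Rps25 and Rps19bp1 kept their calls against MEF, and Rpl14 both its calls, in all alternatives tried. The deposited table gives no background or detection values, so signal over background could not be set beside the dim probe sets.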
